A study of Mus musculus with 10 samples.

Results

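Dense runs of GLIS3 sites in the mouse thyroid gland were chosen by the positions of the binding sites alone. The midpoints of all 18513 sites were sorted along each chromosome, and neighbours at most 10 kb apart were joined into a run. The members are the 204 sites in the 16 runs that held 10 or more sites, which is 1.1% of all sites. The positions are themselves measured in the GLIS3 ChIP, and the tags and folds below come from the same ChIP and the same control. They are therefore given as a description, with no test against other sites.

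The list came from a pair of libraries, both made from thyroid glands of C57BL/6 mice. All mice had received a low-iodine diet (LID) over 2 weeks. One library was from Glis3-EGFP mice, in which GLIS3 is expressed as a fusion with EGFP, and the other from wild-type (WT) mice, which carry no EGFP and served as the control. Chromatin of both was captured on agarose carrying a GFP-binding peptide. In the study's methods, Glis3-EGFP mice used for ChIP-Seq were 8 to 10 weeks old. The study took its GLIS3 data from earlier work, and whether this age holds for the library used here is not stated. The age of the WT mice, and how many glands went into each library, are not stated in the labels or methods. With 1 library for each genotype there is no spread between animals, and the 95% Poisson intervals given for tag counts cover counting error only. The gland holds other cell types beside the follicular cells, and the libraries do not separate them.

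GLIS3 is a Krüppel-like zinc finger transcription factor. In thyroid follicular cells it is needed for the full expression of genes of thyroid hormone synthesis, such as those for the sodium-iodide symporter and pendrin. A low-iodine diet raises thyroid stimulating hormone, which drives these genes. Transcription factors often bind at several places around a gene, at its promoter and at enhancers in introns or in flanking sequence, so that neighbouring sites may belong to the same regulatory region. The sites have positions in the mouse build mm9. No mm9 genome or annotation was used here, so neither the genes at these runs nor the bases under the sites are given.

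A tag is a mapped read, counted once per position. The fold of a site is its tag count over the tags of the WT GFP ChIP, scaled by library size, where a control count of 0 or 1 gives the same fold. Such folds are lower bounds where the control had no tag. From the Glis3-EGFP library 4516562 tags were selected for the calling, and the control is listed with 5171171 tags.

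The 16 runs lay on 11 chromosomes, and chromosomes 1, 2, 7, 8 and 11 held a pair each. A run held 10 to 19 sites over 19.7 to 58.7 kb, with a median span of 33.05 kb. The summed tags of a run were between 118 and 500, which is 3.21 to 18.3 tags per kb of span. The rule fixes the lowest number of sites at 10, so the lower end of the range of site numbers is not a result. The single strongest site held 11.3% to 43.9% of the tags of its run. Of the 204 sites, 48 (23.5%) had 9 or 10 tags, at or next to the caller's minimum of 9, against 30.2% of all sites in the list.

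**Figure D1:**
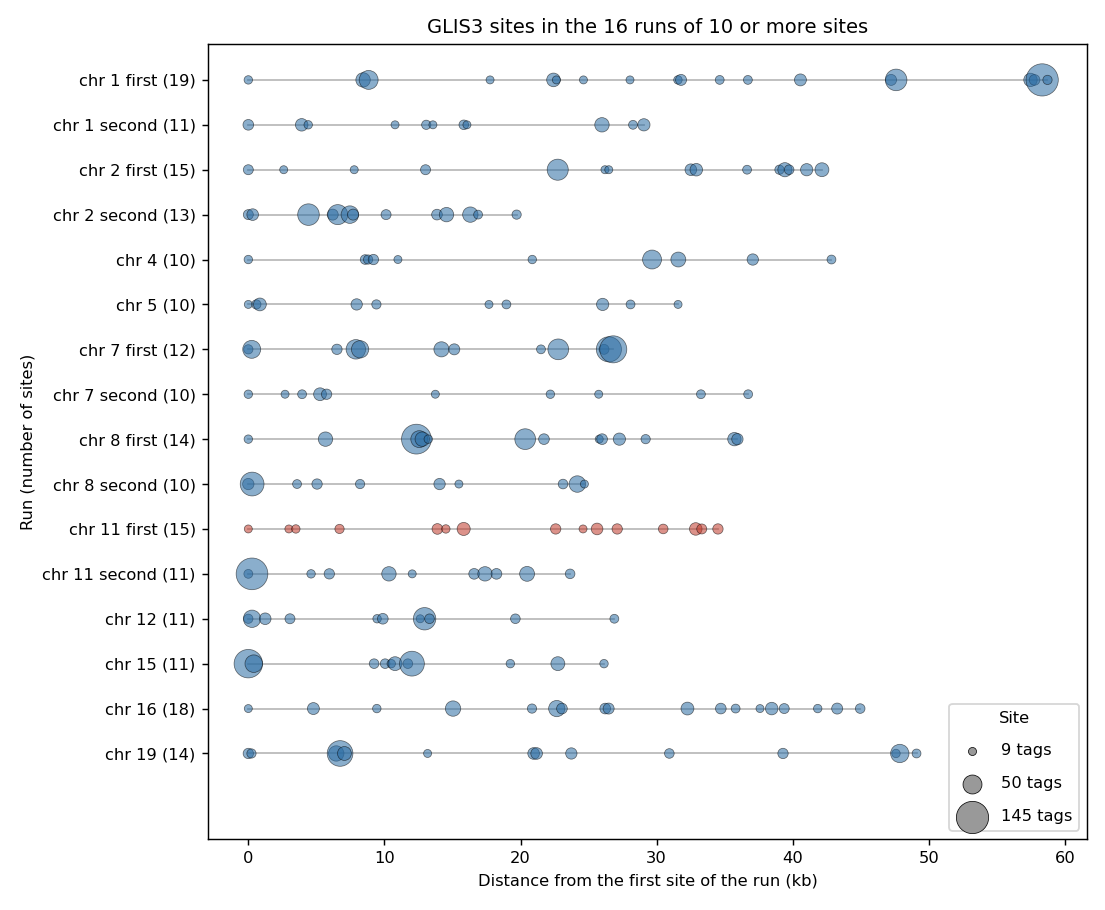
Position of each GLIS3 site in the 16 runs, as the distance in kb from the first site of its run; each circle is a site, its area is proportional to its tags, and the number of sites is given in brackets. The first run of chromosome 1 is the longest with 19 sites over 58.7 kb, and the first run of chromosome 11, which has the highest control tags, is drawn in red.

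Sites over 50 tags were found in 10 of the runs. There were 17 such sites, 8.33% of the members, against 2.93% of all 18513 sites in the list. In 5 runs there was more than 1 of them, on chromosomes 1, 2, 7, 8 and 15. These 5 runs are described first, then the 5 with 1 strong site, the 5 without one, and last the run near the start of chromosome 11.

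The first run of chromosome 1, from 74046851 to 74105611, had both the most sites, 19, and the longest span, 58.7 kb. Its tags ranged from 9 to 145 with a median of 16, and its folds from 9.16 to 166.02 with a median of 12.59. The strongest site of all runs lay here, from 74105171 to 74105231, with 145 tags (95% interval 122 to 171), a fold of 166.02 and 0 or 1 control tag. It was the sixth strongest of the whole list by tags, and it stood at 99.3% of the span, next to the last site of the run. Its neighbours were far weaker. A site with 16 tags lay 560 bp before it and one with 12 tags 390 bp after it, so that 1 site carried 29.0% of the tags of the run. The other strong site, with 65 tags and a fold of 74.42, lay 10.73 kb away from 74094451 to 74094491. Gaps between neighbours were 210 to 9870 bp with a median of 2455 bp. Of the 18 gaps, 7 were at most 1 kb, and the run fell into 12 groups when sites within 1 kb were joined.

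In the first run of chromosome 7, from 29355031 to 29381931, strong sites were the most frequent. Its 12 sites had a median of 37 tags, the highest of all runs, followed by 19.5 in the first run of chromosome 8, and none had fewer than 11. Along the chromosome the sites held 12, 45, 15, 53, 42, 32, 17, 11, 60, 14, 88 and 102 tags. The 4 sites over 50 tags were spread along the run, and the last 2 of them were adjacent. The median fold of 29.2 and the 18.3 tags per kb were also the highest of the 16 runs. The last pair of sites lay 320 bp apart and held 88 tags (95% interval 70.6 to 108) and 102 tags (83.2 to 124), intervals that overlap. Their folds were in the other order, 100.75 with 0 or 1 control tag at the former and 38.93 with 3 control tags at the latter. Its widest gap was 6370 bp and its median gap 1270 bp. No other GLIS3 site lay within 100 kb of this run on either side, while every other run had at least 1. The nearest were 132.8 kb before it and 205.6 kb after it.

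Next, the first run of chromosome 8, from 122788771 to 122824771, held 14 sites with 9 to 124 tags and a median of 19.5. Its strongest site, from 122801131 to 122801191, had 124 tags (95% interval 103 to 148) and a fold of 141.97. It opened a tight group in which the next sites held 40, 29 and 10 tags at gaps of 210, 220 and 440 bp. Tags fell with distance within this group. A separate site with 60 tags and a fold of 34.35 followed 7.99 kb from the strongest, from 122809111 to 122809191. Of its 13 gaps, 4 were under 300 bp, as in the run of chromosome 19, and the other runs had at most 2. Another 16 sites lay within 100 kb outside the run, the largest number for any run.

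The second run of chromosome 2, from 173069451 to 173089231, was the most compact with 13 sites in 19.7 kb, or 6.09 per 10 kb. Its tags ranged from 11 to 65 with a median of 17, and no site was at 9 or 10 tags. The strong sites held 65 tags (95% interval 50.2 to 82.8) from 173073571 to 173074231 and 56 tags (42.3 to 72.7) from 173076031 to 173076071. The intervals overlap, and the difference within the pair was not tested. They lay 2.15 kb apart and had folds of 74.42 and 64.12, and a further site of 43 tags followed 890 bp after the latter. The gaps were 240 to 4100 bp with a median of 1320 bp, and the widest was the smallest maximum of all runs.

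On chromosome 15, the run from 85812011 to 85838251 had 11 sites with 10 to 113 tags and a median of 13. Its first site was its strongest, from 85812011 to 85812051, with 113 tags (95% interval 93.1 to 136) and a fold of 64.69 over 2 control tags. The other strong site, from 85824031 to 85824071, had 86 tags (68.8 to 106) and the highest fold of the run, 98.46, with 0 or 1 control tag. These intervals overlap as well, and the difference was not tested. The sites of 113 and 86 tags were 12.02 kb apart, and both were flanked within 400 bp by a weaker site, of 43 tags and 13 tags. The median gap of 875 bp was the smallest of the 16 runs, and 6 of the 10 gaps were at most 1 kb.

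Among the runs with 1 site over 50 tags, the second run of chromosome 11, from 35728891 to 35752611, was the most uneven. It had 11 sites with a median of 16 tags. Its second site, from 35729171 to 35729211, held 140 tags (95% interval 118 to 165), which is 43.9% of the tags of the run. The next strongest held 31 tags (21.1 to 44.0), an interval that does not overlap that of the strongest, and the difference was not tested. The intervals of the leading sites were also apart in the first runs of chromosomes 1, 2 and 8, the second of chromosome 8 and that of chromosome 19. The fold was 80.15 over 2 control tags. No gap was over 4550 bp, and a total of 15 sites lay outside the run within 100 kb.

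The second run of chromosome 8, from 125047051 to 125071791, began 2.22 Mb after the end of the first. It held 10 sites with 9 to 79 tags and a median of 14. As in the second run of chromosome 11, the second site in order was the strongest. It had 79 tags (95% interval 62.5 to 98.5) and a fold of 90.45, and it lay 280 bp from the first site with 18 tags. The next in strength, 38 tags, lay at the other end of the run 23.89 kb away. All 10 sites had 0 or 1 control tag, whereas every other run had at least 1 site with 2 or more.

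The run of chromosome 19, from 47489471 to 47538611, spread 14 sites over 49.1 kb, with 9 to 92 tags and a median of 16.5. The strongest site, from 47496211 to 47496251, had 92 tags (95% interval 74.2 to 113) and a fold of 52.67 over 2 control tags. It stood between sites of 33 and 27 tags at 280 and 320 bp. The second in strength, with 47 tags (34.5 to 62.5), was 41.12 kb away near the other end and had a slightly higher fold of 53.81 with 0 or 1 control tag. Of its 13 gaps, 5 were at most 1 kb and the widest was 8350 bp, with a median of 2550 bp.

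The run of chromosome 12, from 80978971 to 81006051, held 11 sites with 9 to 70 tags and a median of 13. Its strongest site, from 80991891 to 80992011, had 70 tags (95% interval 54.6 to 88.4) and a fold of 80.15, and the sites on its sides, at 320 and 360 bp, had 9 and 13 tags. Next came a site of 42 tags, 12.68 kb away. Its gaps ranged from 270 to 7270 bp with a median of 1395 bp.

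Finally, the first run of chromosome 2, from 165928631 to 165970811, held 15 sites with 9 to 62 tags and a median of 14. The strong site, from 165951351 to 165951411, had 62 tags (95% interval 47.5 to 79.5) and a fold of 35.49 over 2 control tags. It was more isolated than the strongest site of any other run, with its nearest neighbour 3470 bp away. The sites were narrow, with a median width of 40 bp, and the gaps were 280 to 9710 bp with a median of 2490 bp. All had folds of 10.3 or more.

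**Figure D2:**
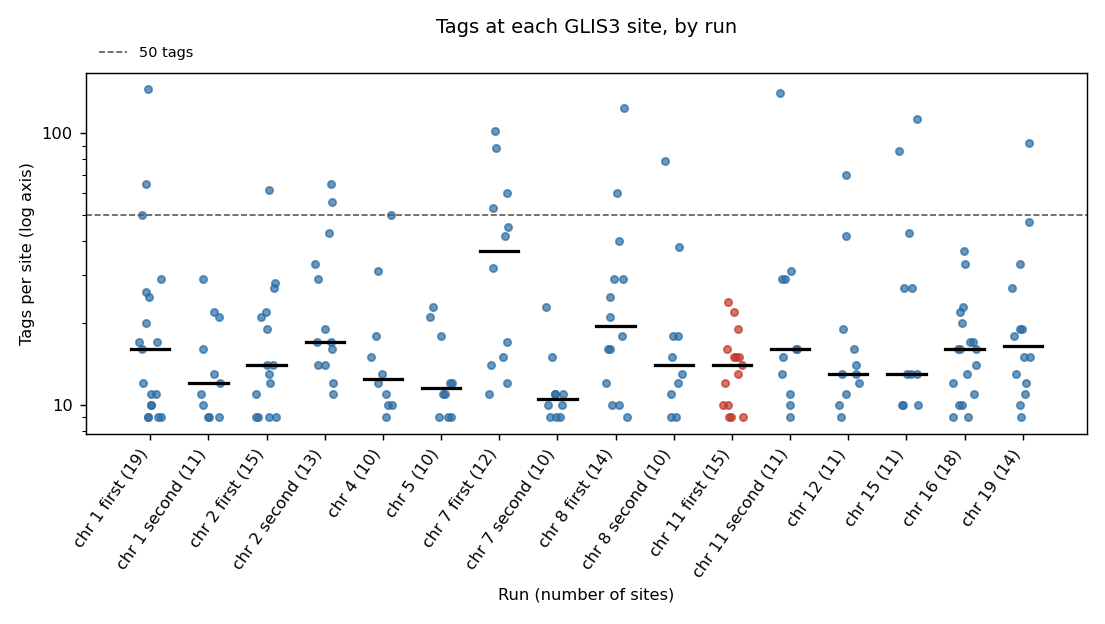
Tags at each GLIS3 site (points, log axis) in each run, with the median of the run (black bar) and a dashed line at 50 tags; the run with the highest control tags is in red. The first run of chromosome 7 has the highest median, 37 tags, and the single highest site, with 145 tags, is in the first run of chromosome 1.

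A high number of sites did not require a strong one. The run of chromosome 16, from 30024891 to 30069931, had the second highest number of sites, 18, over 45.0 kb, and its strongest site, from 30047571 to 30047611, had 37 tags (95% interval 26.1 to 51.0) and a fold of 42.36. This site held 12.1% of the tags of the run. The next had 33 tags (22.7 to 46.3), an interval that overlaps that of the strongest, and the difference was not tested. Its tags ranged from 9 upwards with a median of 16, and its gaps from 250 to 5800 bp with a median of 1820 bp. Its sites fell into 14 groups when sites within 1 kb were joined, the largest number of any run.

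The run of chromosome 4, from 137444111 to 137487031, had the loosest spacing, with 10 sites over 42.8 kb and a median gap of 5470 bp. Its strongest site held exactly 50 tags (95% interval 37.1 to 65.9) with a fold of 57.25, from 137473651 to 137473931. The next, with 31 tags, followed 1.93 kb later, and the remaining 8 sites held 9 to 18 tags. Its widest gap of 9870 bp was close to the limit of the rule.

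In 3 more runs the strongest site was under 30 tags. The second run of chromosome 1, from 166362971 to 166392131, had 11 sites with 9 to 29 tags and a median of 12. Its folds were 3.82 to 33.2, and a gap of 9920 bp, the widest in any run, held it together. The run of chromosome 5, from 123559731 to 123591351, had 10 sites with 9 to 23 tags and a median of 11.5. Its site with the most tags, 23, also had 4 control tags and a fold of 6.58, whereas a site with 21 tags had the highest fold of 24.04. The second run of chromosome 7, from 87198071 to 87234831, was the weakest by tags. Its 10 sites had 9 to 23 tags with a median of 10.5, and 5 of them were at 9 or 10. It had the lowest tags per kb, 3.21, and its shortest gap, 480 bp, was the widest minimum of all runs. A count of 9 tags has a 95% interval of 4.12 to 17.1, so most sites of these 3 runs cannot be ordered by strength.

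The first run of chromosome 11, from 3028471 to 3063611, stood apart from the other 15 by its control tags. It had 15 sites with 9 to 24 tags and a median of 14, which is within the range of the other runs, and gaps of 440 to 7190 bp with a median of 1745 bp. Of its 13 sites whose control count could be recovered, 12 had 3 or more tags in the WT GFP ChIP. The control counts ranged from 0 or 1 to 12, with a median of 8. Along the run they were high at nearly every site and not at a single position. Its folds were 2.0 to 10.3 with a median of 2.29, and the caller required at least 2. The site with the most tags, 24 from 3044291 to 3044351, also had the most control tags, 12, and a fold of 2.29. Its sites were broad, with a median width of 180 bp and a widest site of 1220 bp. Elsewhere, 13 of 182 member sites (7.14%) had 3 or more control tags, and over all 16 runs it was 25 of 195 (12.8%), against 5.22% of the 17804 sites in the list with a recovered count. The highest control count in the other 15 runs was 5, at a site of 32 tags in the first run of chromosome 7. The first run of chromosome 11 was followed 12.9 kb later by a run of 9 sites, from 3075871 to 3102511. In that run the median fold was 4.58 and the median control count 3. It was 1 of 3 runs, among the 14 of exactly 9 sites, with a median control count above 1. What part the signal in WT chromatin had in the calling of the sites in the first run of chromosome 11 was not tested.

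**Figure D3:**
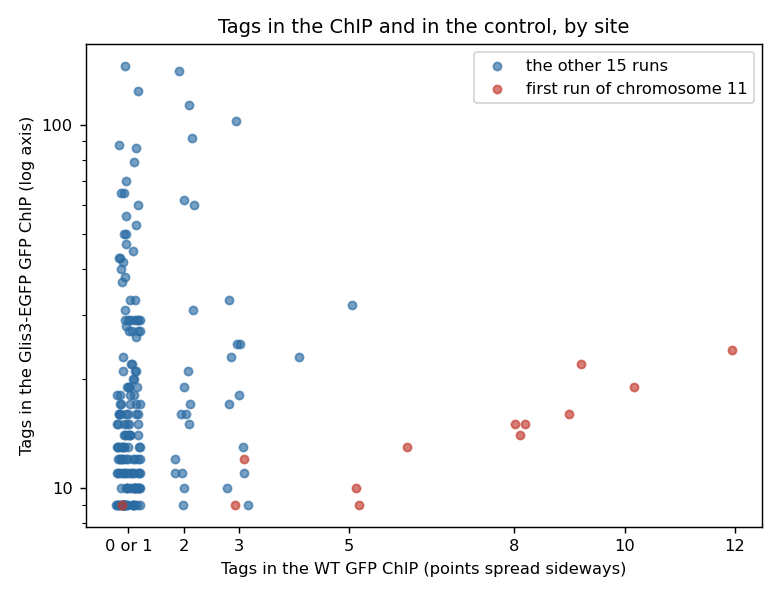
Tags of each member site in the Glis3-EGFP GFP ChIP (vertical, log axis) against its tags in the WT GFP ChIP (horizontal), for the 195 sites with a recovered control count; 0 and 1 control tags share a position. Sites of the first run of chromosome 11 (red) reach 12 control tags, and those of the other 15 runs (blue) at most 5.

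The 188 gaps ranged from 210 to 9920 bp, with a median of 1930 bp and quartiles of 505 and 4690 bp. The smallest gap in the whole list was also 210 bp, and whether the caller sets this lower end was not tested. Median gaps of single runs were 875 to 5470 bp. Of all gaps, 64 (34.0%) were at most 1 kb, and 21 were under 300 bp, close to the fragment length of 204 bp. Sites outside these runs that had a neighbour within 10 kb had a median gap of 1710 bp, and 39.6% of their gaps were at most 1 kb. Under 300 bp were 668 of their 6447 gaps, against 21 of 188 within the dense runs. After sites within 1 kb were joined, a run consisted of 5 to 14 groups with a median of 8.

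**Figure D4:**
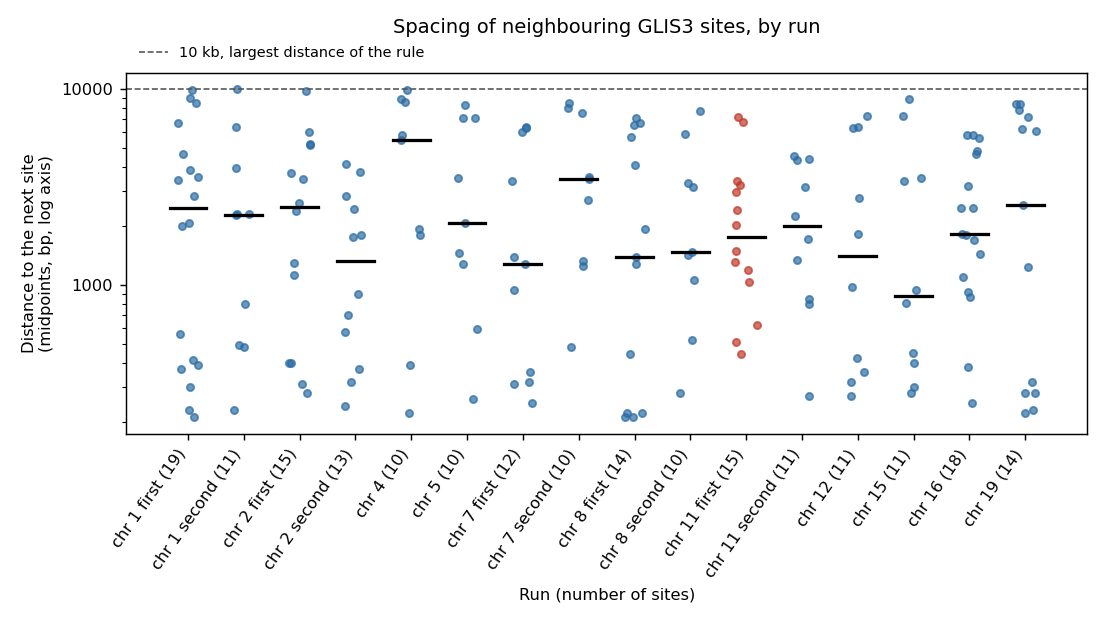
Distance in bp between the midpoints of neighbouring sites (points, log axis) in each run, with the median of the run (black bar) and a dashed line at the largest distance of the rule, 10 kb; the first run of chromosome 11 is in red. Medians lie between 875 bp on chromosome 15 and 5470 bp on chromosome 4, and single gaps span 210 to 9920 bp.

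In 11 of the 16 runs the strongest site had a neighbour within 1 kb, and 13 of the 17 sites over 50 tags did. Close neighbours were common among members of any strength, and the rule itself selects on spacing. Of all 204 members, 41 had a neighbour within 300 bp and another 68 had one from 300 bp to 1 kb away. By the distance to the nearest site, members within 300 bp of another had a median of 17 tags (n = 41 sites), those from 300 bp to 1 kb 16.5 tags (n = 68), those from 1 to 3 kb 13.5 tags (n = 60) and those beyond 3 kb 11 tags (n = 35). Without the first run of chromosome 11 these medians were 17, 17, 13 and 11 tags. Outside the dense runs the same classes had medians of 14, 14, 13 and 13 tags. Sites of 1 run share a locus and a library, and whether 1 tag could count for several close sites was not tested.

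The place of the strongest site within its run varied. In 6 runs it lay in the outer 5% of the span, as in the first runs of chromosomes 1 and 7 and in that of chromosome 15, and in the run of chromosome 16 it lay at 50.4%. In 5 runs the site with the most tags did not have the highest fold. In each of these runs that site had 2 or more control tags, which follows from how the fold is formed. Ranking by tags and by fold gave different leading sites there.

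Set beside the rest of the list, members of dense runs had somewhat more tags. Their median was 15 tags with quartiles of 11 and 23. Sites in runs of 5 to 9 had a median of 14 tags (n = 2061), those in runs of 2 to 4 a median of 13 (n = 8012) and single sites a median of 12 (n = 8236). The share over 50 tags was 8.33%, 6.31%, 3.31% and 1.59% in the same order. Sites with 9 or 10 tags were 23.5% of members and 33.2% of single sites. The median fold of members was 13.74, which equalled that of all sites, and 14.88 without the first run of chromosome 11. The quartiles of single sites, 10 and 17 tags, overlapped those of the members, and 2 of the 10 strongest sites in the list were members.

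The threshold of 10 sites does not mark a break in the values. Just inside it, 4 runs held exactly 10 sites, with median tags of 10.5 to 14 and spans of 24.7 to 42.8 kb, and 1 of them had a site over 50 tags. Just outside, 14 runs held exactly 9 sites, with median tags of 11 to 28 and spans of 8.4 to 33.7 kb, and 4 of them had a site over 50 tags, up to 118. The most compact run of 9, on chromosome 19 from 57081431 to 57089971, had a median gap of 435 bp, below that of every dense run. Among the dense runs, 5 had an outside site at 10 to 12 kb from their first or last site, the nearest at 10.8 kb, which a slightly longer limit would have joined.

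The caller's p-value for each site was at most 0.01 at every site of 15 runs. In the first run of chromosome 11, 12 of the 15 sites exceeded it, with a highest p of 0.016. With only sites of p at most 0.001, the first run of chromosome 1 kept 17 sites, of which 15 still lay in 1 run, while 15 of 18 remained on chromosome 16. No site was lost from the first run of chromosome 2, the second runs of chromosomes 8 and 11, or that of chromosome 15. The runs of chromosomes 12, 4 and 5, the second of chromosome 7 and the first of chromosome 11 no longer had 10 sites in a row, with 8, 9, 8, 7 and 1 left. A fold of at least 5 ended the runs of chromosome 5 and the second of chromosome 7, each with 9 sites left, and the first of chromosome 11, with 1 left. A limit of 5 kb between neighbours left 10 or more sites in a row in 3 runs, with 10 on the first of chromosome 1, 13 on the second of chromosome 2 and 11 on the second of chromosome 11. Joining sites within 1 kb left 4 runs of at least 10, with 14 on chromosome 16, 12 on the first of chromosome 11, and 11 each on the first runs of chromosomes 1 and 2. In that count each group stands at its strongest site, and the last of the 12 groups of the first run of chromosome 1, with the site of 145 tags, then lay 10.73 kb from the group before it and dropped out.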

How the data were processed

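GLIS3 sites came from 1 Glis3-EGFP GFP ChIP and 1 WT GFP ChIP library. Per the submitters' processing notes, the authors used Bowtie and build mm9 (no Bowtie version is stated), and they made the deposited list with SISSRs 1.4 (P 0.05, E 10, window 20 bp, fragment length 204 bp). This is a different call from that in the study's methods, which used mm10. The deposited tag counts, the deposited fold (a ratio to scaled control tags) and the deposited p-value of each site were used as given. The last site of chromosome 1 ends at 197068111, beyond the 195471971 bp of that chromosome in GRCm38, so no GRCm38 position was used.

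Midpoints were chained at 10000 bp. Control tags were recovered from tags, fold and library sizes and accepted when whole within 2%, at 195 of 204 members. Every run was described, and the named sites are the strongest of each run and those over 50 tags, with other sites named as their neighbours after the values were seen. The runs and the comparisons were chosen with earlier results of these data known. No test was run, since there is 1 library per group. Intervals of tag counts are exact Poisson at 95%. Alternatives varied the gap, run size, p-value and fold limits. Chaining and recovery were tested on simulated lists, where all runs were found in 20 of 20. Those lists held widely separated runs and whole control counts, so they checked the code only. They did not cover outside sites just beyond the limit or members without a whole count. Input and RNA libraries were not analysed here. Python 3.11.15, NumPy 2.4.6, pandas 2.3.3, SciPy 1.17.1 and Matplotlib 3.10.9 were used.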

Additional observations from a re-analysis of the deposited data

How the results depend on the processing

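The number of runs, their sites and the medians of tags, fold and gap were recomputed under 10 alternatives. Of 50 values, 34 stayed within 1.5 times the count or within the 95% interval of the median. That interval treats the member sites, or their gaps, as independent, and the alternatives reuse many of the same sites. It serves as a yardstick only and measures no spread between animals. A gap of at most 5 kb gave 3 runs with 34 sites and a median fold of 17.46, and a gap of at most 20 kb gave 75 runs with 918 sites and a median gap of 3090 bp. At a p-value of at most 0.001, 11 runs had 133 sites with a median fold of 17.17. With sites within 1 kb counted as 1, 4 runs had 48 sites, a median fold of 11.45 and a median gap of 3400 bp. At least 8 sites gave 54 runs with 522 sites, and at least 12 sites gave 8 runs with 120 sites. The stricter settings leave fewer sites by construction. Among the members, a p of at most 0.001 came only with a fold of 10.3 or more, and every higher p with 9.73 or less. This p cut therefore removes low folds by construction. Of the 48 joined sites, 12 were from the first run of chromosome 11, which had the lowest median fold. The cause of the shifts in fold under the other settings was not tested. The median of tags was 14 to 16 throughout. Motifs were not run, since no mm9 genome was used here. No paired analysis was possible because the binding data come from 1 library per group and the values come from no test. Sites near 9 tags lie at the caller's minimum, and how far sequencing depth limits them was not tested.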
